A study of Penicillium oxalicum with 6 samples.

Results

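The genes described here are the 31 consecutive locus tags POX_a00740 to POX_a00770 on chromosome I of Penicillium oxalicum, of 9822 genes listed in the deposited files. They are a window of tag numbers around the block POX_a00747 to POX_a00762 and the gene POX_a00764. The window was chosen by the FPKM values of these same 6 libraries. The reasons were a highly expressed block, far higher in a mutant than in the strain PoxKu70, and POX_a00764, far lower in that mutant. FPKM is a gene's number of sequenced fragments per unit of transcript length, relative to all mapped fragments of its library. All 31 passed the filter on low values, a 6-library mean of 1 FPKM or more. P. oxalicum is a filamentous fungus that secretes enzymes which break down starch and other plant polysaccharides. RNA was sequenced from mycelium, the thread-like growth form of the fungus, with 3 libraries of a strain whose genotype is given as a mutant of POX_a00954 and 3 libraries of PoxKu70, given as wild type. Both strains were treated alike: spores from plates (4 days, 28 °C) went into glucose medium for 24 h, and the mycelium was then moved for 24 h to medium in which raw starch was the sole source of carbon. The labels do not say which part of POX_a00954 was altered, whether the mutant was made in PoxKu70, whether it is a single clone, or whether replicates came from separate cultures, so the spread between libraries may be technical only.

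In filamentous fungi, genes that serve a common pathway, such as the making of a secondary metabolite or the uptake and use of a nutrient, often lie side by side and are switched together, in some cases by a transcription factor encoded elsewhere. Genes adjoining such a group can be read independently of it. None of the 31 genes carries a product name in the files or in the reference table, so none is given a role here. In the RefSeq table of strain HP7-1 the 31 tags are 31 protein-coding genes that follow each other in tag order on chromosome I, with no overlap between the spans of neighbours. That table places 2 rRNA genes between POX_a00763 and POX_a00764 and 1 rRNA gene between POX_a00741 and POX_a00742.

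POX_a00954, named in the series title as a transcription factor gene, had 283 FPKM, 275 FPKM and 441 FPKM in the 3 mutant libraries and 716 FPKM, 679 FPKM and 842 FPKM in the 3 PoxKu70 libraries. It was thus lower in every mutant library but still present. The FPKM sum per library lay between 1338218 and 1409899 in the mutant and between 1025654 and 1076733 in PoxKu70. Read numbers are not part of the files, but the steps between low FPKM values placed the other 5 libraries at 1.15 to 1.97 times the depth of mutant replicate 1, with all 3 PoxKu70 libraries deeper than all 3 mutant libraries. Values of a few FPKM therefore rest on fewer reads in the mutant. In bulk RNA, more RNA per cell and more cells with that RNA cannot be told apart.

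The mutant differed from PoxKu70 in opposite directions along the window. The 16 genes from POX_a00747 to POX_a00762 were all higher in the mutant, with log2 changes from 0.98 to 4.69. POX_a00764 was lower by 3 orders of magnitude, from a mean of 4891 FPKM to 3.76 FPKM. The genes in between and just outside, POX_a00746, POX_a00763 and POX_a00765, had overlapping groups. On the other side of the block, POX_a00742, POX_a00743 and POX_a00744 were lower in every mutant library. This contrast was what drew attention to the window, so all values of mutant against PoxKu70 below are a description. Calls from the fit across all genes are given only to place each member beside the rest of the table, and do not count as a test of the members.

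**Figure D1:**
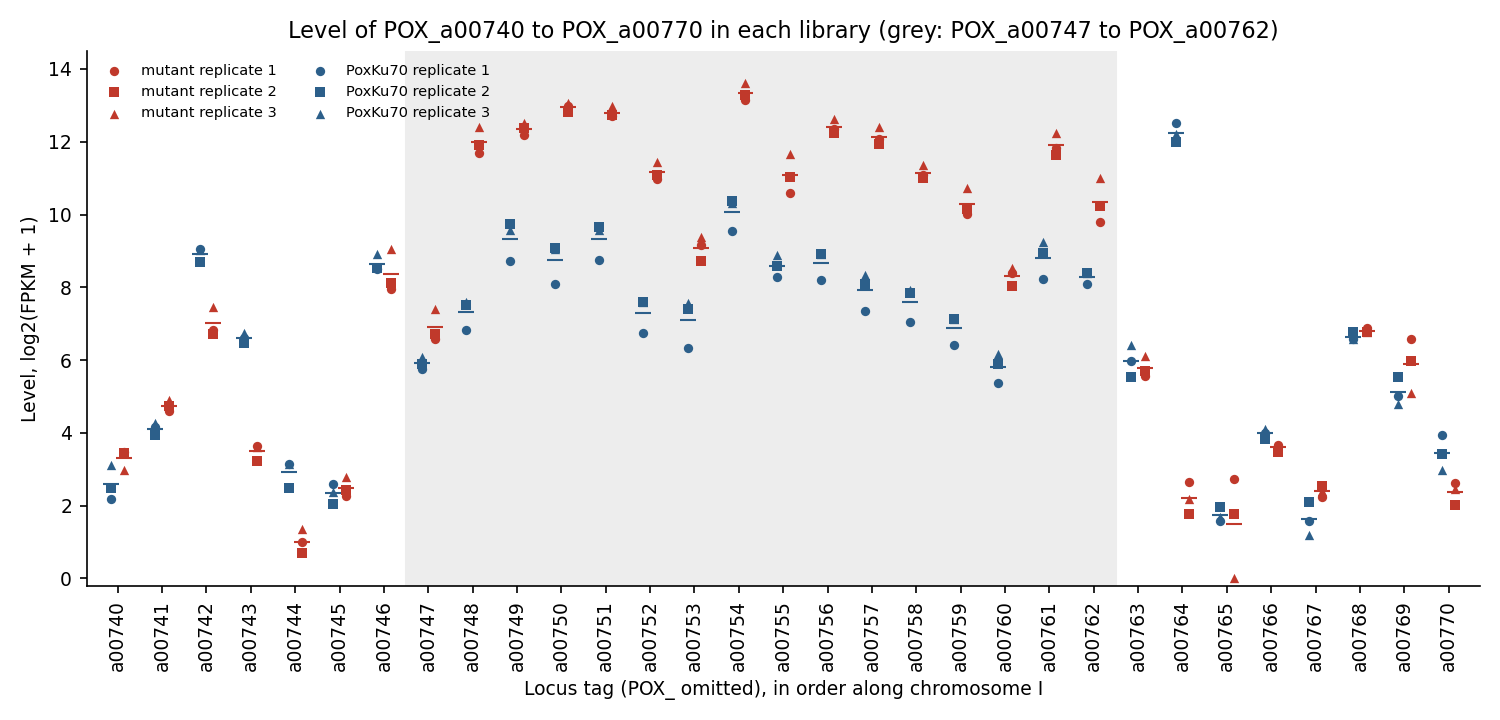
Level of each of the 31 genes as log2(FPKM + 1) on the vertical axis, in the order of the locus tags on the horizontal axis. Each symbol is 1 library (red for the mutant, blue for PoxKu70; circle, square and triangle for replicates 1, 2 and 3), and short lines are means of the 3 libraries on that scale. The red symbols lie above the blue ones throughout the grey block POX_a00747 to POX_a00762, and far below them at POX_a00764.

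In counts, 19 of the 31 genes were called higher and 6 lower in the mutant in limma, where a call means a Benjamini-Hochberg adjusted p under 0.05 over all 8448 genes tested. Over all tested genes, 60.5% were called in either direction, 30.5% higher and 30% lower. By at least 1 log2 unit, 15 members were called higher and 5 lower, where the table as a whole had 15.5% and 14.1%. The mutant libraries lay wholly above the PoxKu70 libraries for 19 members and wholly below for 6, against 34.4% and 33.7% of all tested genes. The median log2 change was 0.98 over the 31 members and 3.34 over the block, beside -0.0089 over all tested genes. These counts follow from how the window was chosen.

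The block POX_a00747 to POX_a00762 as a whole held 53670 FPKM, 54475 FPKM and 70689 FPKM in mutant replicates 1 to 3 and 3819.8 FPKM, 6497 FPKM and 6639 FPKM in PoxKu70 replicates 1 to 3. The lowest mutant library was thus far above the highest PoxKu70 library. The mean sum was 59612 ± 9602 FPKM in the mutant and 5652 ± 1588 FPKM in PoxKu70 (SD, n = 3 each), a ratio of 10.5. As a share of all FPKM, the block took 3.91%, 4.07% and 5.01% of the mutant libraries and 0.37%, 0.60% and 0.62% of the PoxKu70 libraries. The 100 most abundant genes of the mutant, out of 9822, included 11 of the 16 block genes, and those of PoxKu70 included 0. The block was chosen partly for its high expression, so its abundance in the mutant follows from the choice. For comparison, the rising groups POX_c04232 to POX_c04253 and POX_c04511 to POX_c04523 on chromosome III each had 0 genes among the 100 most abundant of the mutant and held 0.41% and 0.20% of its FPKM on average. Their mean shares of the FPKM sum were nevertheless 35.7 and 64.1 times as large in the mutant as in PoxKu70. For the block, the mean share in the mutant was 8.13 times that in PoxKu70.

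The most abundant member was POX_a00754, with 9076 FPKM, 9998 FPKM and 12514 FPKM in mutant replicates 1 to 3 and 753 FPKM, 1318 FPKM and 1267 FPKM in PoxKu70 replicates 1 to 3. It had the 9th highest mean of all genes in the mutant and the 128th in PoxKu70, and its groups did not overlap. Its mean was 9.46 times higher in the mutant (log2 change 3.27, SE 0.24). It was the most abundant gene of the block in both strains.

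POX_a00750 came next in the mutant, at 8131 FPKM, 7229.9 FPKM and 8586 FPKM in replicates 1 to 3, against 272 FPKM, 539.99 FPKM and 531 FPKM in PoxKu70. This gene had the smallest relative spread of the block in the mutant, with a coefficient of variation of 8.65%. Its mean was 17.8 times higher in the mutant (log2 change 4.22, SE 0.26), and it stood 16th of all genes there and 385th in PoxKu70. POX_a00751, the gene beside it, was at 6647 FPKM, 6760.3 FPKM and 8076 FPKM in the mutant and at 431 FPKM, 802 FPKM and 766 FPKM in PoxKu70. The mean of POX_a00751 was 10.7 times higher (log2 change 3.47, SE 0.24), close to the ratio of the whole block.

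POX_a00756 was at 5212 FPKM, 4818 FPKM and 6319.6 FPKM in mutant replicates 1 to 3 and at 294 FPKM, 479.7 FPKM and 484 FPKM in PoxKu70, 13.0 times higher in the mean (log2 change 3.72, SE 0.22). POX_a00749 was at 4636 FPKM, 5349.9 FPKM and 5884 FPKM in the mutant and at 418 FPKM, 847 FPKM and 758 FPKM in PoxKu70, 7.85 times higher (log2 change 3.03, SE 0.26). POX_a00749 was the second most abundant block gene of PoxKu70 but the 5th of the mutant. In all 5 of these genes the groups were far apart, and PoxKu70 replicate 1 was the lowest library.

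The 5 genes made up 61.1% of the block's FPKM in the mutant and 58.7% in PoxKu70, and 4 of the 5 were also among the 5 most abundant block genes of PoxKu70. Over the 16 genes, the order of mean levels in both strains was similar, with a Spearman rho of 0.84 across genes, which are not independent replicates and share their libraries. Single block genes had means of 56.6 to 1113 FPKM (median 283) in PoxKu70 and of 123 to 10529.5 FPKM (median 3106) in the mutant.

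**Figure D2:**
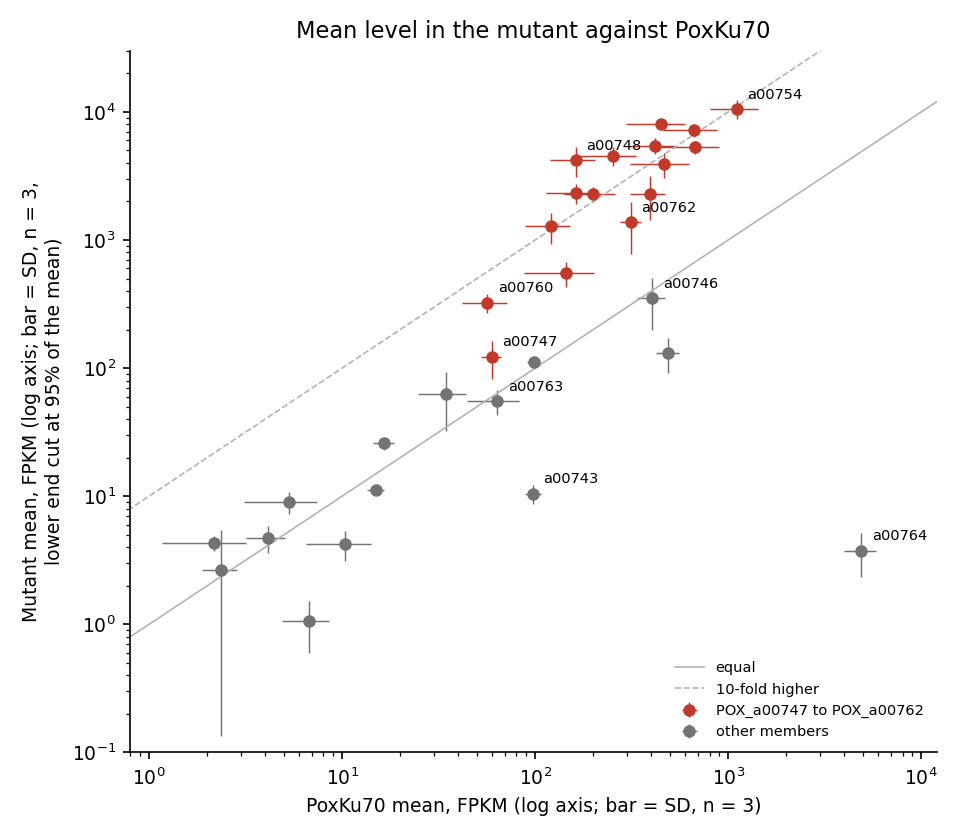
Mean level of each of the 31 genes in the mutant (vertical, FPKM, log axis) against PoxKu70 (horizontal, FPKM, log axis), with SD bars over 3 libraries. The block genes, in red, lie between the line of equal levels and somewhat above the dashed line of 10-fold higher levels, with POX_a00747 nearest to equality, while POX_a00764 lies alone at the lower right.

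The ratio between strains was not uniform along the block. It ran from 2.06 in POX_a00747 to 25.9 in POX_a00748, its immediate neighbour, with a median of 10.1; 8 genes had a ratio of at least 10 and 8 a lower one. After POX_a00748, the largest ratios were 18.1 in POX_a00757 and 17.8 in POX_a00750. POX_a00748 rose from a mean of 162 FPKM to 4194 FPKM (log2 change 4.69, SE 0.25), and moved from the 12th to the 7th place within the block. The smallest ratios after POX_a00747 were 3.80 in POX_a00753 and 4.38 in POX_a00762. POX_a00753, well inside the block, had a mean of 145 FPKM in PoxKu70 and of 552 FPKM when POX_a00954 was mutated (log2 change 1.99, SE 0.32). POX_a00755 and POX_a00760 had ratios of 5.86 and 5.70, and the other 8 genes had ratios from 7.85 in POX_a00749 to 14.3 in POX_a00752.

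At the left edge, POX_a00747 was the first gene inside the block and POX_a00746 the first outside it. POX_a00747 was at 93.9 FPKM, 104 FPKM and 170 FPKM in mutant replicates 1 to 3 and at 53.1 FPKM, 58.6 FPKM and 67.3 FPKM in PoxKu70 (log2 change 0.98, SE 0.22). Its groups were separate but close, and it was the least abundant block gene of the mutant. POX_a00746 was at 247 FPKM, 278 FPKM and 529 FPKM in the mutant and at 359.8 FPKM, 371 FPKM and 482 FPKM in PoxKu70 (log2 change -0.27, SE 0.28). Its groups overlapped, because mutant replicate 3 was above all PoxKu70 libraries and the other two mutant libraries were below them. With single libraries left out, its log2 change ran from -0.062 without mutant replicate 1 to -0.61 without mutant replicate 3, where it was called lower. With each library scaled to the same FPKM sum it was -0.65, without a call.

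At the right edge, POX_a00762 was the last gene inside the block and POX_a00763 the next outside it. POX_a00762 was at 884 FPKM, 1208 FPKM and 2034 FPKM in mutant replicates 1 to 3 and at 269 FPKM, 336 FPKM and 336 FPKM in PoxKu70 (log2 change 2.05, SE 0.28). The groups were separate, with the widest relative spread of the block in the mutant, a coefficient of variation of 43.1%. POX_a00763 was at 46.3 FPKM, 50.5 FPKM and 68.7 FPKM in the mutant and at 61.4 FPKM, 45.8 FPKM and 83.7 FPKM in PoxKu70 (log2 change -0.18, SE 0.24). Its groups overlapped. With single libraries left out, its log2 change ran from -0.39 without PoxKu70 replicate 2 to 0.036 without PoxKu70 replicate 3. With each library scaled to the same FPKM sum it was -0.55, also without a call.

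POX_a00764, the gene after that, had 5.29 FPKM, 2.44 FPKM and 3.55 FPKM in mutant replicates 1 to 3 and 5890.6 FPKM, 4041 FPKM and 4739.8 FPKM in PoxKu70 replicates 1 to 3. The groups were separated by a wide gap, and the gene was low, but not at 0, in all 3 mutant libraries. Its mean was 3.76 ± 1.44 FPKM in the mutant and 4891 ± 934 FPKM in PoxKu70 (SD, n = 3 each), 1301 times lower (log2 change -10.03, SE 0.24). In PoxKu70 it had the 19th highest mean of all genes and was the only one of the 31 members among the 100 most abundant; in the mutant it stood 7625th. It was the 6th largest fall of all tested genes, and the 6 genes up to it were the ones with a log2 change of -10 or lower. By itself it made up 0.57%, 0.38% and 0.44% of the FPKM of PoxKu70 replicates 1 to 3, a share of the same order as that of the whole block in these libraries.

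POX_a00765, on the far side of POX_a00764, had 5.59 FPKM, 2.44 FPKM and 0 FPKM in mutant replicates 1 to 3, beside 1.96 FPKM, 2.91 FPKM and 2.23 FPKM in PoxKu70 (log2 change -0.24, SE 0.61). Its groups overlapped and its level was low throughout, so that its change depended on single libraries, from -0.85 without mutant replicate 1 to 0.51 without mutant replicate 3. The fall of POX_a00764 was thus flanked on both sides by a gene with no called change.

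The 3 genes whose levels over the 6 libraries were nearest to those of POX_a00764, by Euclidean distance of log2(FPKM + 1), lay on other chromosomes by their tag letters. POX_c04047, at a distance of 0.99, had a mean of 2.93 FPKM in the mutant and 4651 FPKM in PoxKu70. POX_b02315, at a distance of 1.15, had means of 2.22 FPKM and 5174 FPKM. POX_d04867, at a distance of 2.76, had means of 0.69 FPKM and 3494 FPKM. This likeness is mostly that of the difference between strains, since 3 libraries a strain hold little else.

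The change from one tag to the next was largest at POX_a00764. From POX_a00763 to POX_a00764 the log2 change stepped by -9.85, and from POX_a00764 to POX_a00765 by 9.79. Of the 7409 pairs of neighbouring tested genes in the table, 10 had a step at least as large as the first and 11 at least as large as the second, each count including the step itself. Over the 2 tags from POX_a00762 to POX_a00764, from a rise to the fall, the step was -12.08. In levels, the steps at POX_a00764 were 6.24 and -10.50 log2 units in PoxKu70, where it stood out above both neighbours, and -3.56 and -0.37 log2 units in the mutant.

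At the edges of the block the steps were smaller. The log2 change stepped by 1.26 from POX_a00746 to POX_a00747 and by 3.70 from POX_a00747 to POX_a00748, so that the rise was reached over 2 tags. On the right, it stepped by -2.23 from POX_a00762 to POX_a00763. Steps at least as large as these 3 were found in 32.4%, 4.40% and 12.8% of all neighbouring pairs. Within the block the median absolute step was 0.90 log2 units over 15 pairs, close to the 0.82 over all pairs of the table. In levels, the mutant stepped by 5.08 log2 units from POX_a00747 to POX_a00748 and by -4.61 from POX_a00762 to POX_a00763, where PoxKu70 had steps of 1.43 and -2.28.

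**Figure D3:**
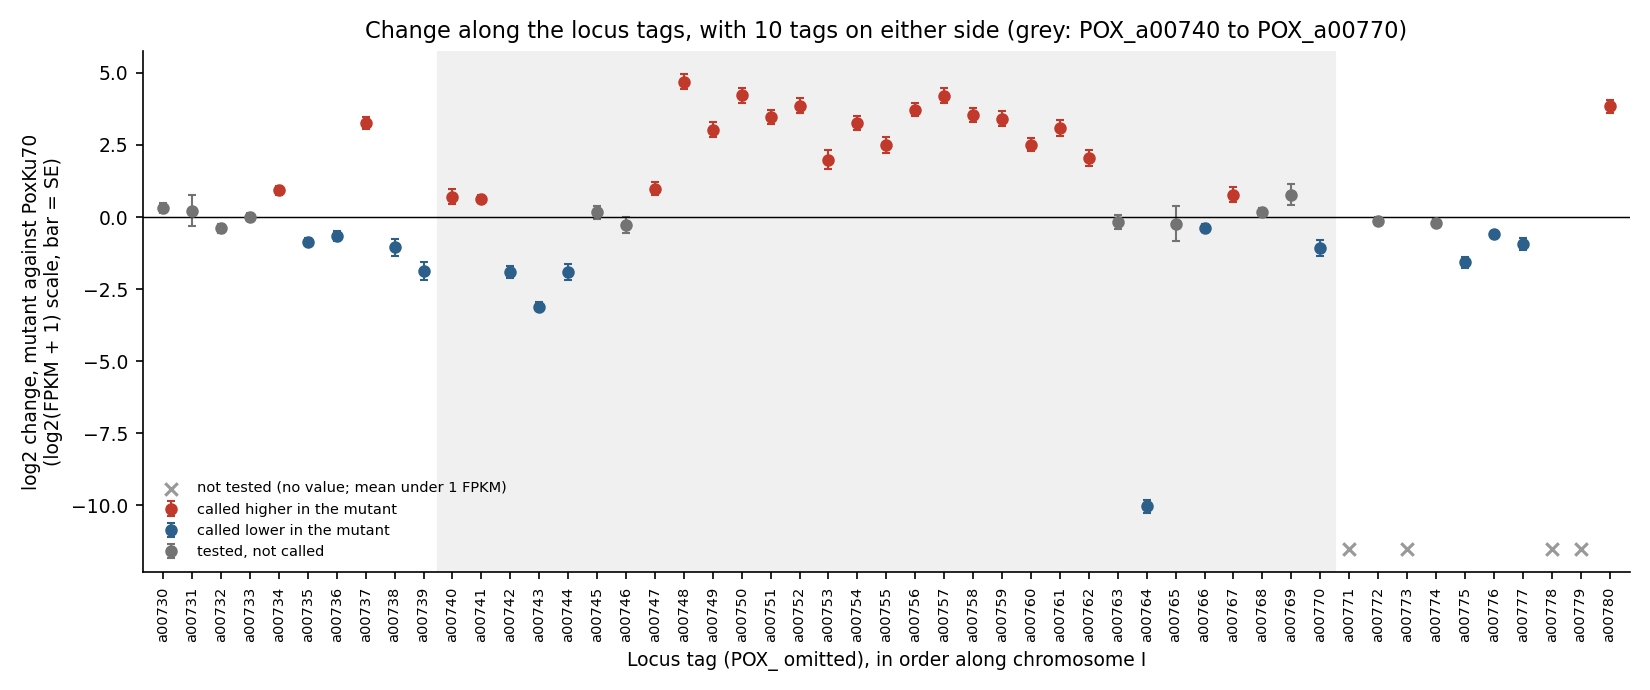
The log2 change of the mutant against PoxKu70 on the log2(FPKM + 1) scale (vertical; bars are SE) in tag order (horizontal), for the 31 members on grey and 10 tags on either side. Red points were called higher, blue points lower and grey points neither; crosses mark genes below the filter, which have no value. All block genes from POX_a00747 to POX_a00762 lie above 0, at unequal heights from 0.98 to 4.69, and POX_a00764 at -10.03 lies far from all other points.

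On the left flank, 3 of the 7 genes from POX_a00740 to POX_a00746 were called lower and 2 higher. Over all tested genes, 30% were called lower and 30.5% higher. The 3 lower genes lay side by side. POX_a00742 was at 113 FPKM, 104 FPKM and 176 FPKM in mutant replicates 1 to 3 and at 529 FPKM, 410.4 FPKM and 520.1 FPKM in PoxKu70 (log2 change -1.91, SE 0.22). POX_a00743 was at 11.5 FPKM, 8.43 FPKM and 11.3 FPKM in the mutant and at 97.3 FPKM, 88.2 FPKM and 107 FPKM in PoxKu70 (log2 change -3.11, SE 0.16). The groups of both genes were well separated, with POX_a00743 at a mean 9.35 times lower in the mutant. POX_a00744 was at 0.99 FPKM, 0.63 FPKM and 1.54 FPKM in the mutant and at 7.80 FPKM, 4.58 FPKM and 7.79 FPKM in PoxKu70 (log2 change -1.90, SE 0.27), low in both strains but without overlap. POX_a00745, between these falls and the block, was at 3.81 to 5.96 FPKM in the mutant and 3.14 to 5.03 FPKM in PoxKu70, with overlapping groups. Hence POX_a00745 and POX_a00746 stood between the falls and the block on the left, as POX_a00763 stood between the block and the fall of POX_a00764 on the right.

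The other flanking genes had log2 changes between -1.08 and 0.78. POX_a00740 and POX_a00741 were called higher, at log2 changes of 0.71 (SE 0.27) and 0.62 (SE 0.15), from PoxKu70 means of 5.28 FPKM and 16.5 FPKM. The call of POX_a00740, whose groups overlapped, was lost in 8 of 14 alternative settings, and that of POX_a00741 in 1, where libraries were scaled to equal sums. POX_a00766 was called lower at -0.39 (SE 0.14) and POX_a00767 higher at 0.78 (SE 0.27), and each lost its call in 5 of 14 settings. POX_a00767 was low in both strains, at 3.76 to 4.87 FPKM in the mutant and 1.28 to 3.27 FPKM in PoxKu70. It was not tested in 1 further setting, the higher filter. POX_a00768, at 108 to 117 FPKM in the mutant and 93.9 to 107 FPKM in PoxKu70, had separate groups but no call (log2 change 0.18, SE 0.12), and its change turned to -0.20 with libraries scaled to equal sums. POX_a00769 varied most within the mutant among the flanking genes above 10 FPKM, at 94.4 FPKM, 61.9 FPKM and 33.1 FPKM, and was not called at 0.77 (SE 0.36) except without mutant replicate 3 and with a replicate block. POX_a00770 was called lower, from a mean of 10.4 FPKM to 4.25 FPKM (log2 change -1.08, SE 0.28).

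The libraries within a strain were also compared, which does not use the difference between strains. They are the same libraries from which the window was chosen. Genes measured in the same library are not independent replicates, so the counts of genes below are a description. In PoxKu70, replicate 1 was the lowest of the 3 libraries for all 16 block genes, where it was the lowest for 33.0% of the 6084 tested genes that averaged 10 FPKM or more in both strains. The level in replicate 1 was 0.58 times the mean of replicates 2 and 3 for the block sum, and 0.45 to 0.84 times for single genes, with a median of 0.57. Over the 6084 genes the median of that ratio was 0.97 and its 5th percentile was 0.74; 14 of the 16 block genes lay below that percentile, as did 0 of the 8 other members above the same minimum level. The library compared with the other two was picked after the values were seen. The median coefficient of variation of the block genes in PoxKu70 was 29.0%, against 11.1% for tested genes of like mean level (the same 10% classes of level).

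POX_a00764 went the other way in these libraries. Its level in PoxKu70 replicate 1 was 1.34 times the mean of replicates 2 and 3, so the library lowest in the block was the highest in POX_a00764. That replicate was also the highest of its strain for 21.8% of the 6084 genes. Among the 15 members outside the block it was the highest for 5, POX_a00764 included. The 95th percentile of the ratio over the 6084 genes was 1.23. The ratio of the block sum to POX_a00764 was 0.65 in replicate 1, 1.61 in replicate 2 and 1.40 in replicate 3 of PoxKu70. With 3 libraries no correlation was computed. In the mutant the same ratio was 10146 in replicate 1, 22326 in replicate 2 and 19912 in replicate 3. There POX_a00764 was at only 2.44 to 5.29 FPKM, so differences between these 3 ratios are limited by depth.

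In the mutant, replicate 3 was the highest library for all 16 block genes, where it was the highest for 48.0% of the 6084 genes. Its block sum was 1.31 times the mean of replicates 1 and 2, and the ratio ran from 1.12 to 1.94 over single genes. Over the 6084 genes the median of that ratio was 1.05 and the 95th percentile 1.48. Only 11 of the 16 block genes lay below that percentile, where 95% of the 6084 genes lie by definition. The spread was widest at POX_a00762 and POX_a00755, and POX_a00755 was at 1549.97 FPKM, 2094 FPKM and 3231 FPKM in mutant replicates 1 to 3. The median coefficient of variation of the block in the mutant was 17.6%, against 12.9% for genes of like level. By estimated depth, PoxKu70 replicate 1 lay between replicates 3 and 2 of that strain, and mutant replicate 3 between replicates 1 and 2.

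**Figure D4:**
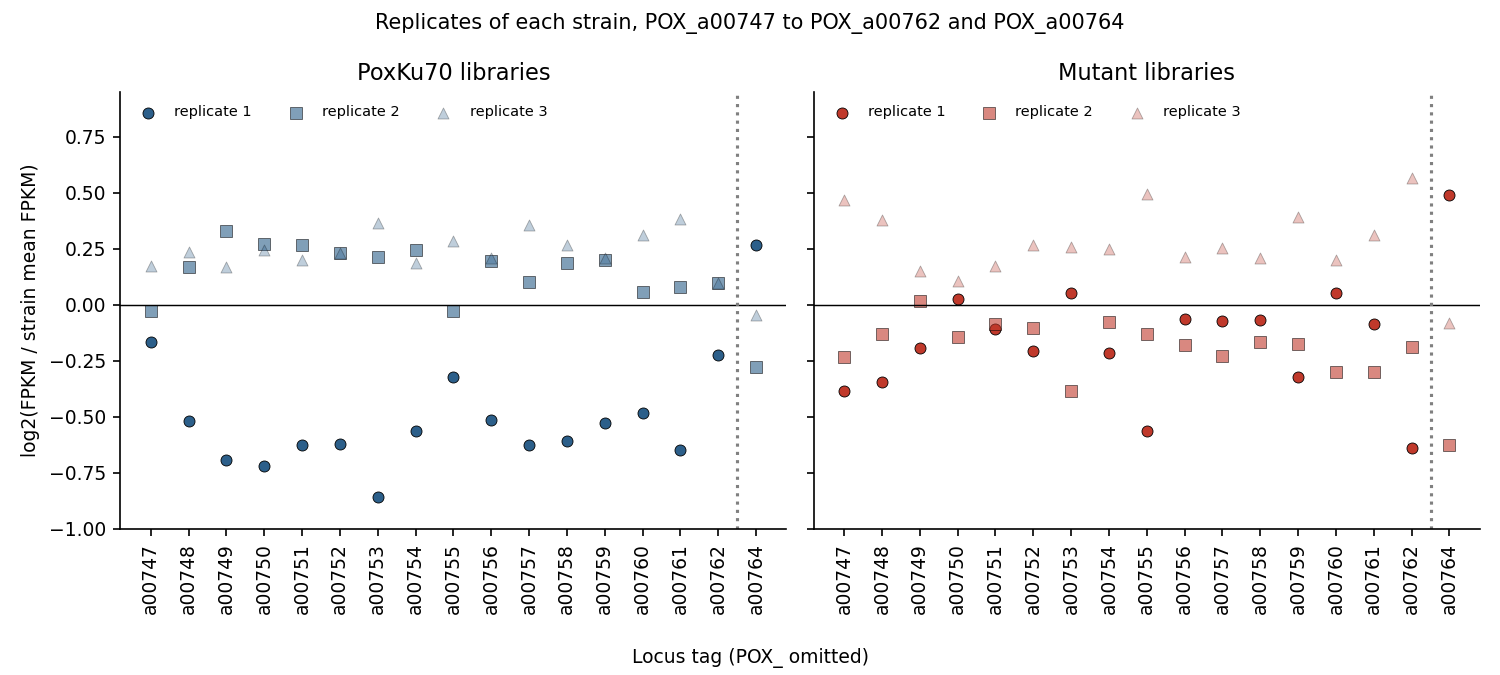
Level of each library relative to the mean of its strain, as log2(FPKM / strain mean FPKM) on the vertical axis, for the 16 block genes and, right of the dotted line, POX_a00764, with PoxKu70 on the left and the mutant on the right. Each symbol is 1 library. PoxKu70 replicate 1 is the lowest for all 16 block genes and the highest for POX_a00764, and mutant replicate 3 is the highest for all 16 block genes.

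Leaving out PoxKu70 replicate 1 lowered the ratio of the block sums from 10.5 to 9.08, and scaling each library to the same FPKM sum lowered it to 8.13. Over the 14 alternative settings, the lowest log2 change of any block gene was 0.61, that of POX_a00747 with libraries scaled to equal sums. The block was chosen on this contrast in the same libraries, so that its genes stayed higher is no sign of stability. That scaling moved the median log2 change of all genes by -0.35.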

How the data were processed

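The authors deposited, per the file headers, FPKM values per gene, with 1 file per library. The submitters' processing notes name bcl2fastq and HISAT2 with no version; build, annotation and counting tool: not given in the sources used here. Per the labels' protocols, poly(A) RNA was enriched and random-primed, with no step that marks the strand. No coordinates are printed; neighbours come from the RefSeq table of P. oxalicum HP7-1, which matched 9718 of 9822 IDs and all 31 members. That table holds no products, and protein and promoter sequences were not used here, so the planned protein comparison was not run.

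From these, limma 3.58.1 (R 4.3.3; eBayes with intensity trend, two-sided, genotype as the term, 6 libraries) was fitted to log2(FPKM + 1) of the 8448 genes that averaged 1 FPKM or more; calls use a Benjamini-Hochberg adjusted p of 0.05. A fold on this scale understates changes of low genes; ratios are of mean FPKM. The fit was also run on simulated data. These had far fewer changed genes than were called here, and smaller changes than the largest here, so that run is no support for the calls. Relative depth was estimated in Python 3.11.15 from the commonest ratio between libraries of low values in genes at 0 in at least 2 libraries. Members and lists were chosen with earlier results of these data known. All members are named, with every library's value given for POX_a00764, the genes beside it, the block's edges and its 5 most abundant genes in the mutant; POX_a00742 to POX_a00744 and POX_a00755 were added after their values were seen. Alternatives were pseudocounts, filters, scalings, eBayes without trend, a fit with a replicate block, and each library left out in turn.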

Additional observations from a re-analysis of the deposited data

How the results depend on the processing

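No called member changed sign in any of 14 alternatives, and 25 of 31 members kept their call wherever tested. The window was chosen on this contrast in the same libraries, so kept signs and calls are no sign of stability. At a minimum mean of 5 FPKM, 4 members were not tested. Scaling each library to the same sum gave 1641 genes called higher and 3903 lower over the table, against 2575 and 2532, and a log2 ratio of the block sums of 3.02, against 3.40; it moves all values of the mutant down because the mutant's FPKM sums are larger. A pseudocount of 5 FPKM gave -9.12 for POX_a00764 and -11.16 for the step from POX_a00762 to POX_a00764, by construction, since it exceeds most values of POX_a00764 in the mutant. Leaving out each library gave 3.18 to 3.53 for the log2 ratio of the block sums, -10.25 to -9.82 for POX_a00764, -12.58 to -11.75 for the step, 17 to 19 members called higher, 5 to 7 called lower, and 4341 to 5119 genes called over the table. Deviations from strain means correlated at -0.064, -0.0029 and 0.15 between libraries of equal replicate number. Between libraries of unlike number the correlations ran from -0.15 to 0.16. With 3 libraries a strain, these values cannot settle whether replicates were paired. A replicate block gave 5103 called genes, 4922 of them among the 5107, and the same 19 and 6 counts of members, with POX_a00769 in place of POX_a00740. No count model was run, since FPKM are not counts, and values of a few FPKM, as of POX_a00764 in the mutant, are limited by depth.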

Other observations

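The 10 tags on either side of the window held calls in both directions. Of POX_a00730 to POX_a00739, 2 genes were called higher and 4 lower, with log2 changes from -1.87 to 3.26. Of POX_a00771 to POX_a00780, 6 were tested, of which 1 was called higher and 3 lower. Over all tested genes, 30.5% were called higher and 30% lower. With so few flanking genes, a difference from these shares was not tested. The 2 strong rises, named after their values were seen, were POX_a00737, from a mean of 4.69 FPKM in PoxKu70 to 52.7 FPKM in the mutant, and POX_a00780, which was listed at 0 in PoxKu70 replicates 1 and 2 and at 0.23 FPKM in replicate 3, and at 11.6, 13.8 and 18.2 FPKM in mutant replicates 1 to 3.

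A strong fall close to a rise, as at POX_a00764, was found elsewhere in the table too. Of the 52 tested genes with a log2 change of -5 or lower, 20 (38.5%) had a gene called higher by at least 1 log2 unit within 2 tags. Over all 8448 tested genes the share with such a gene within 2 tags was 40.7%. The 2 sets are unlike, so the shares are only set side by side. All tested genes include rising genes that lie beside each other, as in the block, and the 52 include POX_a00764 itself. No test was made of this difference.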
